A study of Mus musculus with 33 samples.

Results

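The genes described here are 39 genes that encode postsynaptic scaffold proteins and signalling proteins of long-term potentiation (LTP), the lasting strengthening of synapses studied in the CA1 region of the hippocampus. All 39 were found by Ensembl identifier among the 38355 genes in the count tables of aged mice, and 38 of them as a locus of their own among the 40678 loci in the FPKM tables of young mice. Prr7 was the exception, since in the young mice it was joined with its neighbour Grk6 into a single locus.

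RNA came from microdissected CA1 tissue of mice that received JQ1, a small molecule that keeps BET bromodomain proteins off acetylated histones, or vehicle. In the aged experiment, the labels give a transgenic APP strain on a C57B/6 background, an age of 8 to 10 months and 10 days of intraperitoneal (i.p.) treatment for all 3 groups. Here 6 APP mice had received 50 mg per kg of JQ1, 6 APP mice had received vehicle with 10% DMSO, and 4 mice whose titles read WT had received the same vehicle. Although that strain label covers the WT mice too, they were taken as WT by title. In the young experiment, 8 C57B/6JRj mice received 50 mg per kg of JQ1 and 8 received vehicle with 10% DMSO, at 3 months of age and over 13 days. In the APP line the neuronal Thy1 promoter drives the transgenic expression. According to the methods, females of this line were used for behaviour, the purchased C57 mice were males, and tissue was taken the day after a water maze test. There was no JQ1-treated aged WT group, and the experiments differed in age, strain, sex, days of treatment and unit of the deposited values.

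The postsynaptic density is a protein mesh under the membrane of dendritic spines. Membrane-associated guanylate kinases, encoded by the Dlg genes, hold glutamate receptors at its upper face, Dlgap proteins link them to Shank proteins, and Shank and Homer proteins form the deeper layer that reaches the actin skeleton and metabotropic glutamate receptors. Calcium that enters through NMDA receptors binds calmodulin and activates calcium/calmodulin-dependent kinase II, calcium-stimulated adenylyl cyclases and the phosphatase calcineurin, and small GTPase regulators then reshape the spine. CREB, the product of Creb1, carries such signals to transcription. CA1 pyramidal neurons express many of these genes strongly.

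The aged libraries held between 14605459 and 25339482 counts on genes, so that 3 counts corresponded to between 0.118 and 0.205 CPM (counts scaled to library size with TMM factors). The share of uniquely placed reads outside exons lay between 15.4 and 26.9%. The depth of the young libraries is unknown, since FPKM (fragments scaled to transcript length and library size) carry no counts. The 7 CA1 marker genes looked at, such as Wfs1 and Slc17a7, were all detected. Their summed level lay between 1900 and 2789 CPM in the aged mice, with Slc17a7 alone between 1005 and 1683 CPM. Markers of neighbouring fields were detected too. Their sums lay between 340.2 and 668.3 CPM for CA3 and between 131.9 and 266.4 CPM for dentate granule cells. The purity of the dissection is thus not settled by these markers. Aged WT replicate 1 stood apart, with 3164 CPM of summed choroid plexus markers, of which Ttr made up 3065 CPM, whereas the medians of the 3 aged groups were between 25.95 and 44.4 CPM. Results that involve WT mice are therefore given with and without this mouse where it moves them.

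The 39 genes covered a wide range of levels. Per kilobase of exonic sequence, the mean level in vehicle-treated APP mice ran from 3.23 CPM for Camk2d, which encodes the delta subunit of calcium/calmodulin-dependent kinase II, to 625.2 CPM for Nrgn, which encodes neurogranin, the calmodulin-binding protein of spines. Camk2a, the gene of the alpha subunit of the same kinase, followed closely at 619.5 CPM per kilobase, a gap smaller than the spread between mice. Then came Ppp1r9b (spinophilin, which brings protein phosphatase 1 to spines) at 190.4, Agap2 (a GTPase-activating protein for Arf) at 167.2 and Camk2b at 145.1 CPM per kilobase. At the lower end, next to Camk2d, lay Creb1 at 3.39, Adcy8 at 3.73 and Prr7 at 7.03 CPM per kilobase. Of the 39 genes, 36 lay above the 50th percentile of all genes tested on this scale. Within vehicle-treated APP mice the coefficient of variation across mice ranged from 4.51% to 44.8%, with a median of 13.7%, and was highest for Shank1.

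**Figure D1:**
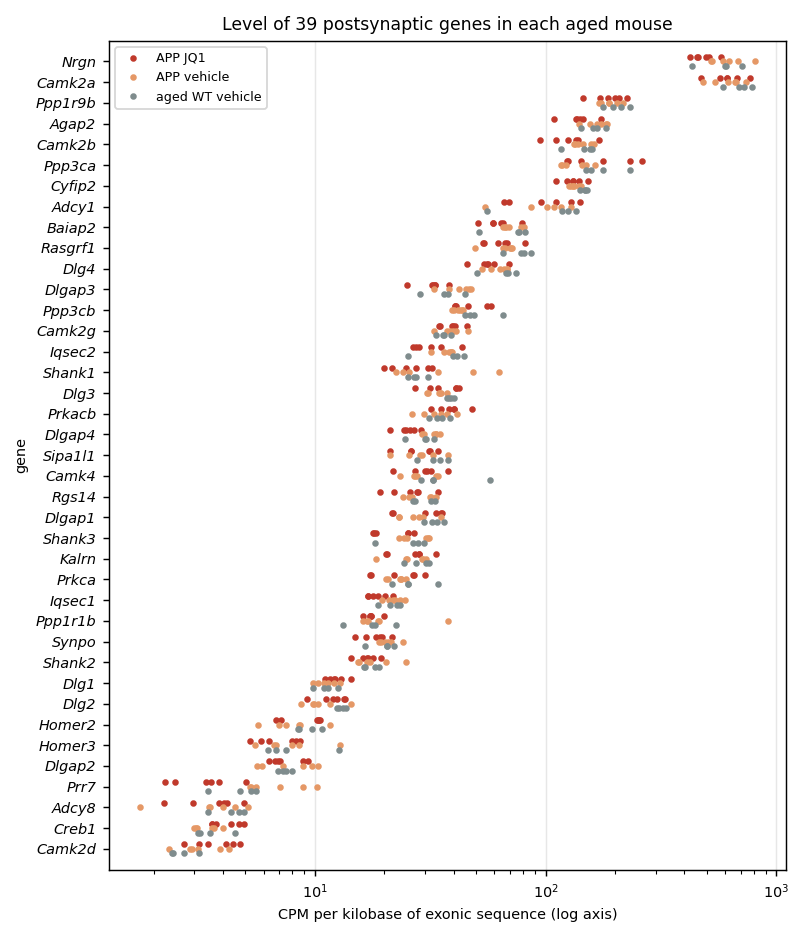
Level of each of the 39 genes in every aged mouse, in CPM per kilobase of exonic sequence on a log axis, with 1 point per mouse and genes ordered by the mean of vehicle-treated APP mice. Nrgn and Camk2a stand above the rest, and a pair of groups is without overlap for Prr7 and Dlgap4 (JQ1 against vehicle in APP mice) and for Ppp3cb (vehicle-treated APP against WT mice).

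Between JQ1 and vehicle in APP mice, 1 of the 39 genes passed the threshold of an adjusted p under 0.05 (edgeR quasi-likelihood test, Benjamini-Hochberg over all 16962 genes tested). This was Prr7, which encodes a transmembrane adaptor of the postsynaptic density, and it was lower after JQ1. Among all genes 1.08% passed, and 0.466% passed with a lower level, so that a count of 1 in 39 is no result about the list as a whole. The fitted level of Prr7 after JQ1 was 0.486 of that after vehicle. The median log2 fold change of the 39 genes was -0.03, against -0.001 for all genes, and 14 genes lay above 0 and 25 below. At an unadjusted p under 0.05 there were 9 genes, or fewer than 1 in 4, where 17.6% of all genes reached this level. With DESeq2 the threshold was passed by 3 of the 39, namely Prr7, Dlgap4 and Dlgap3, where it called 749 of 14049 genes (5.33%). When edgeR was run with gene GC content corrected in each library, 0 of 39 passed, where 19 of 16769 genes (0.113%) did. WT replicate 1 enters the shared estimate of the spread in this fit. Without it, 2 of 39 passed (Prr7 and Dlgap4), where 446 of 17330 genes did.

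The standard errors of the log2 fold changes ranged from 0.07 to 0.25. For 31 of the 39 genes the 95% interval lay within a 1.5-fold change in either direction, so for these genes a larger difference in CA1 RNA is outside the interval. Camk2a, the kinase subunit most closely tied to LTP, is an example, with 4615 ± 749.7 CPM (SD, n = 6) after JQ1 and 4625 ± 702.5 CPM after vehicle, a log2 fold change of -0.003 and an interval from -0.25 to 0.25. The 8 genes whose interval reached beyond that limit were Dlgap3, Shank1, Shank3, Homer3, Ppp1r1b, Ppp3ca, Nrgn and Prr7.

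**Figure D2:**
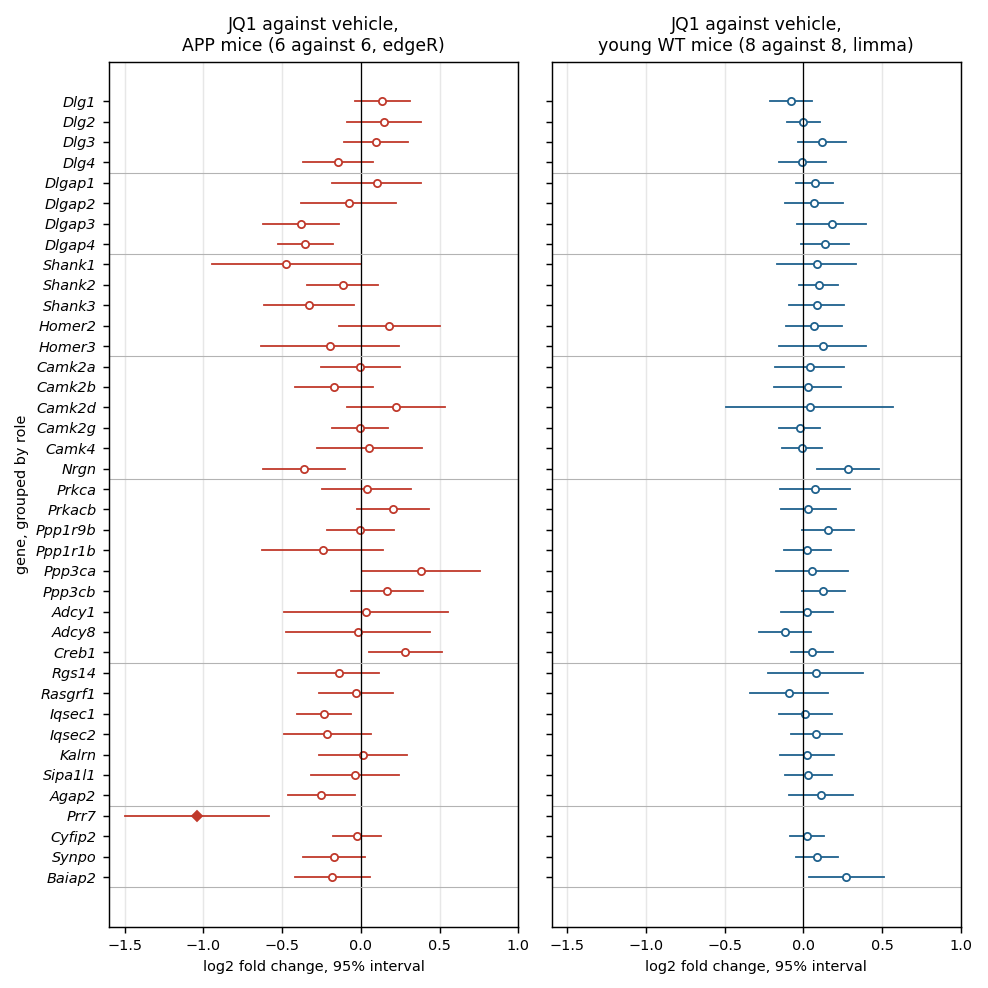
Log2 fold change of JQ1 against vehicle with its 95% interval, on the left in APP mice (39 genes) and on the right in young WT mice (38 genes), grouped by role. The filled diamond marks an adjusted p under 0.05. Prr7 at -1.04 is the only filled symbol, and the genes with the lowest values on the left, such as Dlgap3, Dlgap4, Shank1 and Nrgn, lie above 0 on the right.

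Prr7 ranged from 3.04 to 6.83 CPM (median 4.69) in the 6 JQ1-treated APP mice and from 7.12 to 13.9 CPM (median 8.57) in the 6 vehicle-treated APP mice. The groups did not overlap. With n = 6 in each group the means were 4.64 ± 1.37 and 9.56 ± 2.84 CPM (SD). This gave a log2 fold change of -1.04 ± 0.22 (SE) with an interval from -1.50 to -0.59 and an adjusted p of 0.0258 in the edgeR quasi-likelihood fit. An exact permutation test of the means (two-sided) gave p = 0.00217, the smallest that 6 against 6 allows. When single mice were left out, the adjusted p lay between 0.0162 and 0.0798 and was above 0.05 without JQ1 replicate 2, 4 or 6 or vehicle replicate 3, 4 or 5. The 4 WT mice had 4.68, 6.46, 7.17 and 7.52 CPM, with a mean between those of the APP groups and a range that overlapped both. Prr7 is also the shortest and the most GC-rich of the 39 genes, with 1359 exonic bases of which 69.0% are G or C, and after the correction for GC content and length its log2 fold change was -0.60 with an adjusted p of 0.274. Grk6, the neighbour that shares its locus in the young mice, had 96.3 ± 7.71 CPM after JQ1 and 107.3 ± 5.06 CPM after vehicle in APP mice (adjusted p = 0.228, edgeR).

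**Figure D3:**
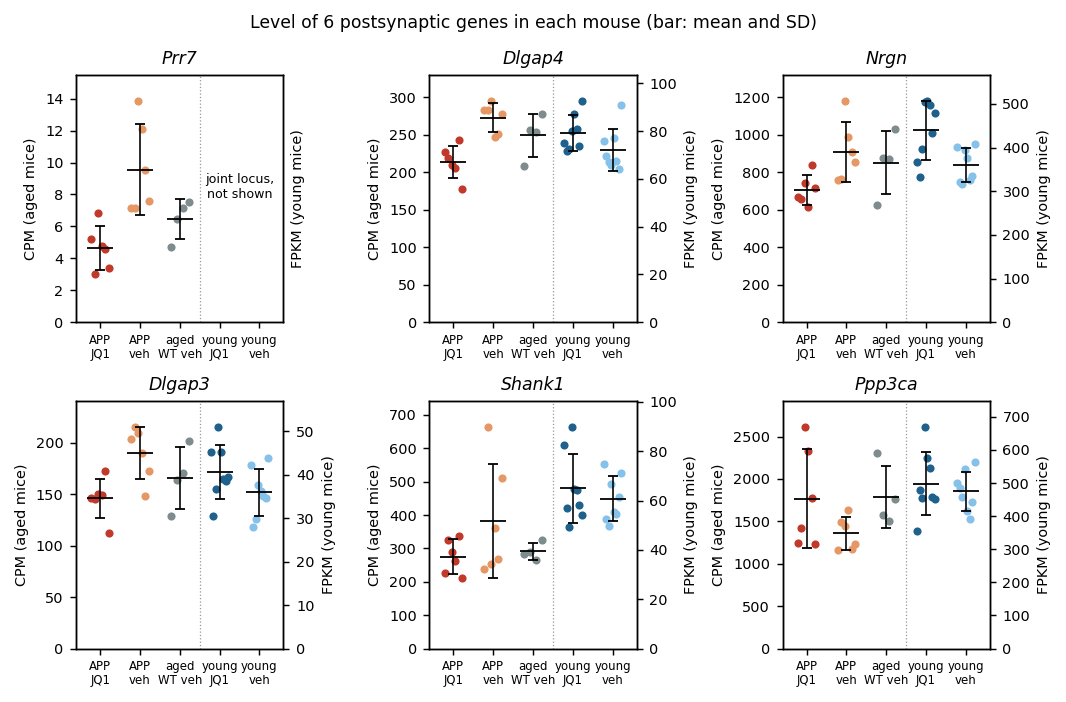
Levels of Prr7, Dlgap4, Nrgn, Dlgap3, Shank1 and Ppp3ca in every mouse, in CPM for the 3 aged groups (left axis) and FPKM for the 2 young groups (right axis), with the mean and SD as black bars. Both axes start at 0 and the scales are not comparable with each other. Prr7 and Dlgap4 show no overlap between JQ1 and vehicle in APP mice, and the mean of Nrgn is 707.1 CPM after JQ1 and 908.4 CPM after vehicle there, but 439.7 and 359.3 FPKM in young WT mice.

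In the group of the Dlgap genes, whose products join the Dlg scaffolds to Shank proteins, 3 of 4 lay below 0 and none passed the threshold. Dlgap4 came nearest. It ranged from 178.2 to 242.6 CPM (median 214.1) after JQ1 and from 246.8 to 294.9 CPM (median 280.3) after vehicle, again without overlap, and the 4 WT mice had 208.7, 256.5, 253.5 and 277.4 CPM. Its log2 fold change was -0.35 ± 0.08 (SE), with an adjusted p of 0.0506 in edgeR and p = 0.00217 in the exact permutation test. Without WT replicate 1 in the fit, the adjusted p of Dlgap4 was 0.0254 (edgeR). Prr7 and Dlgap4 were the 2 genes of 39 without overlap between the groups, where 2.03% of all genes had none and 1.15% had none with a lower level after JQ1. Dlgap3, the member of the group with the highest level per length, ranged from 112.9 to 172.3 CPM (median 148.2) after JQ1 and from 148.8 to 215.2 CPM (median 197.2) after vehicle, and the groups overlapped. The 4 WT mice had 128.5, 164.2, 170.7 and 201.7 CPM of it. Its log2 fold change was -0.38 ± 0.12 with an adjusted p of 0.107 (edgeR). Dlgap1 and Dlgap2 gave 0.10 and -0.08.

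Among the 4 Dlg genes, 3 lay above 0, and the log2 fold changes ran from -0.14 to 0.15. Dlg2, with the largest of them, had 194.6 ± 26.03 CPM after JQ1 (lowest 150.3, median 199.1, highest 219.1) and 175.7 ± 32.4 CPM after vehicle (lowest 141.5, median 164.9, highest 233.8), with an adjusted p of 0.517 in edgeR. In the 4 WT mice it read 215.5, 222.6, 206.8 and 202.5 CPM, so the vehicle-treated APP mice reached below all 4 of them but overlapped with them. Dlg4, whose product is the most abundant scaffold of the density, had 753.3 ± 103.8 CPM after JQ1 (605.4 to 923.8, median 742.2) and 831.6 ± 82.1 CPM after vehicle (700.5 to 906.2, median 860.0), with an interval of the log2 fold change from -0.36 to 0.08. The 4 WT mice had 668.8, 911.4, 891.2 and 981.8 CPM of Dlg4.

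Of the 5 Shank and Homer genes, 4 lay below 0. Shank1 ranged from 210.2 to 337.6 CPM (median 275.6) after JQ1 and from 237.3 to 662.7 CPM (median 313.9) after vehicle, and the 4 WT mice had 282.7, 288.5, 265.9 and 326.0 CPM. The vehicle-treated APP mice thus spread far upwards, with an SD of 171.3 CPM against 51.6 CPM after JQ1, and the log2 fold change of -0.47 ± 0.22 had an adjusted p of 0.286 (edgeR). Shank3, a gene linked to autism, had -0.33 (adjusted p = 0.216), and Shank2 had -0.12. Homer2 had 0.18 and Homer3 -0.19, and 25.4% of the exonic bases of Homer3 overlap Ddx49 on the opposite strand, whose reads cannot be told apart from its own unless strand was counted.

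In the calcium and calmodulin group, the 4 subunits of calcium/calmodulin-dependent kinase II and Camk4, the nuclear kinase that phosphorylates CREB, gave log2 fold changes from -0.17 to 0.22, and none passed. Nrgn was the lowest of the group. It ranged from 613.2 to 840.7 CPM (median 692.8) after JQ1 and from 759.5 to 1179 CPM (median 879.9) after vehicle, with overlap, and the 4 WT mice had 623.9, 875.2, 872.0 and 1028 CPM. The log2 fold change was -0.36 ± 0.12 with an adjusted p of 0.145 (edgeR).

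The 9 genes of the cyclic AMP, kinase and phosphatase group leaned the other way, with 6 above 0 and 3 below, and none passed. Ppp3ca, which encodes the alpha catalytic subunit of calcineurin, had the highest value of all 39 genes, 0.38 ± 0.18 (adjusted p = 0.276, edgeR). It ranged from 1234 to 2609 CPM (median 1599) after JQ1 and from 1168 to 1638 CPM (median 1335) after vehicle, and read 2309, 1577, 1501 and 1762 CPM in the 4 WT mice, so all 3 groups overlapped. Creb1 had 0.28 (adjusted p = 0.197), Prkacb, a catalytic subunit of protein kinase A, 0.20, and Ppp3cb, the beta subunit of calcineurin, 0.17. For Ppp1r9b the interval was from -0.22 to 0.21, with 964.4 ± 143.9 CPM after JQ1 (738.4 to 1147, median 985.7) and 967.6 ± 90.5 CPM after vehicle (866.9 to 1103, median 959.4). In the 4 WT mice Ppp1r9b had 899.6, 1077, 999.7 and 1180 CPM. Ppp1r1b, the phosphatase inhibitor best known from striatal neurons, had -0.24, and 15.7% of its exonic bases overlap a transcript on the opposite strand. Vehicle replicate 1 had 110.2 CPM of Ppp1r1b, the highest value, while the medians were 51.2 CPM after JQ1 and 52.5 CPM after vehicle.

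Of the 7 small GTPase regulators, 6 lay below 0 and none passed. Agap2 ranged from 644.6 to 1031 CPM (median 826.6) after JQ1 and from 830.2 to 1095 CPM (median 1011) after vehicle, and the 4 WT mice had 842.7, 992.4, 956.0 and 1088 CPM. Its log2 fold change was -0.25 ± 0.10 with an adjusted p of 0.203 (edgeR). Iqsec1, an exchange factor for Arf, had -0.24 (adjusted p = 0.147), whereas Kalrn, an exchange factor for Rac, had 0.01 and Rasgrf1, the calcium-activated exchange factor for Ras, -0.03. Rgs14, which is enriched in CA2 neurons, had -0.14, with medians of 113.3 CPM after JQ1 and 122.7 CPM after vehicle. The 6 CA2 markers, Rgs14 among them, had median sums of 179.4 and 203.6 CPM, so Rgs14 itself is a large part of the sum. These sums lay between 160.4 and 242.1 CPM after JQ1 and between 154.3 and 232.8 CPM after vehicle. Of the 6 markers, 4 lay below 0 and 2 above, and none passed.

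Besides Prr7, the last group holds 3 genes of the actin skeleton and the spine apparatus, which were all below 0 and did not pass. Cyfip2, a subunit of the WAVE complex that starts actin branches, had 934.3 ± 100.6 CPM after JQ1 (787.3 to 1083, median 932.6) and 949.5 ± 44.5 CPM after vehicle (901.4 to 1012, median 934.7). The 4 WT mice had 1048, 1053, 997.0 and 1070 CPM of it. Synpo, which the spine apparatus needs, had -0.17, and Baiap2, a membrane-bending actin adaptor, -0.18.

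In young WT mice, 0 of the 38 genes passed the threshold (limma on log2 of FPKM + 0.1, Benjamini-Hochberg over 18420 loci), where 0.00543% of all loci passed. No gene was without overlap between the groups, where 0.0271% of all loci were. Of the 38, 2 had an unadjusted p under 0.05, where 4.65% of all loci did. These were Nrgn and Baiap2. The values lay above 0 for 31 genes and below for 7, and the median log2 fold change was 0.06, against 0.003 over all loci. All 38 intervals lay within a 1.5-fold change. Nrgn ranged from 332.6 to 506.3 FPKM (median 456.7) in the 8 JQ1-treated mice and from 316.5 to 406.9 FPKM (median 355.3) in the 8 vehicle-treated mice, with a log2 fold change of 0.28 ± 0.09 and an adjusted p of 0.981 (limma). Dlgap4 ranged from 71.5 to 92.6 FPKM (median 77.6) after JQ1 and from 64.0 to 90.7 FPKM (median 68.7) after vehicle, with a log2 fold change of 0.14 ± 0.07. Both genes overlapped between the groups. Dlgap3 ranged from 30.5 to 50.9 FPKM after JQ1 and from 27.9 to 43.8 FPKM after vehicle, Shank1 from 49.1 to 89.7 and from 49.6 to 74.8 FPKM, and Ppp3ca from 354.1 to 668.3 and from 390.2 to 564.3 FPKM. All 4 Dlgap genes and all 5 Shank and Homer genes were above 0, the former from 0.07 to 0.18 and the latter from 0.07 to 0.12. Of the named genes, Dlg2, Dlg4, Ppp3ca, Ppp1r9b, Agap2, Cyfip2, Shank1 and Dlgap3 had adjusted p-values of at least 0.981 (limma). The joint locus of Grk6 and Prr7 had 28.2 ± 2.47 FPKM after JQ1 and 26.1 ± 1.74 FPKM after vehicle (n = 8 each), with a log2 fold change of 0.11 and an adjusted p of 0.981, and says nothing of Prr7 alone. Shank2 was listed at 4 loci, of which the one with the highest mean, 23.4 FPKM, was used.

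The JQ1 effect in APP mice was compared with that in young WT mice by the difference of the 2 log2 fold changes in a fit of all 32 mice (limma, 12275 genes matched by symbol). For 2 of the 38 genes the difference passed the threshold, where 2.02% of all genes passed and 1.14% passed with a lower value. In both, the log2 fold change after JQ1 was lower in APP than in young WT mice. For Dlgap4 the difference was -0.49 ± 0.11 with an adjusted p of 0.0169, and for Nrgn it was -0.63 ± 0.16 with an adjusted p of 0.0271. Dlgap3 was next with -0.56 ± 0.16 and an adjusted p of 0.0589. With a correction for GC content and length, 0 of 38 passed, and the differences were -0.22 for Dlgap4 (adjusted p = 0.41) and -0.40 for Nrgn (adjusted p = 0.239). Genotype, age, sex, strain and days of treatment all differ between the experiments and cannot be told apart here, and CPM and FPKM were put on the log2 scale together only as differences within each experiment.

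The promoters are shown for the 3 genes that passed a test, since the proteins that JQ1 targets act at promoters and enhancers. RefSeq windows on GRCm38.p6 from 250 bases before to 50 bases after a transcript start existed for 28 of the 39 genes, 43 windows in all. Their median GC content was 60.3% with a median of 16 CpG dinucleotides, against 52.7% and 7 for all 32851 windows. The cyclic AMP response element TGACGTCA, searched on both strands, was in 0 of the 43 windows and in 1.79% of all windows. Its shorter forms TGACG or CGTCA, which overlap the full element, were in 16.3% of the 43 windows and in 20.8% of all windows. The window of Prr7 is chr13:55464017-55464316 on the plus strand with 29 CpG, that of Dlgap4 chr2:156720715-156721014 on the plus strand with 50 CpG and 1 TGACG, and that of Nrgn chr9:37552696-37552995 on the minus strand with 17 CpG. The window of Dlgap4 belongs to an internal start, since the gene begins at position 156613705 in GENCODE M21. Each is printed from 5′ to 3′ with CpG dinucleotides in capitals.
Prr7: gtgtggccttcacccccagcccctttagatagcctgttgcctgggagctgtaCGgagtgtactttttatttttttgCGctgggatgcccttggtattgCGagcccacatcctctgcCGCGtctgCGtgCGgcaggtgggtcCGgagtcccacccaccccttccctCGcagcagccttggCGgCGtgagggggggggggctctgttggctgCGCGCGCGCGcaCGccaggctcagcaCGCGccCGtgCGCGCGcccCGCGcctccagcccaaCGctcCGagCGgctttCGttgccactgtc
Dlgap4: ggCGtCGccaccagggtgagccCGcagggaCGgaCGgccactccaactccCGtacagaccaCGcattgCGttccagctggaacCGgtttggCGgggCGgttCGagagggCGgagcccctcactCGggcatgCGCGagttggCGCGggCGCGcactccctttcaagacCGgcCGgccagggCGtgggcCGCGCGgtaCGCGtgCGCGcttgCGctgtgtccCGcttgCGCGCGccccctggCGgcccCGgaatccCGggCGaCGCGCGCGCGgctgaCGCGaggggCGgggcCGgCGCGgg
Nrgn: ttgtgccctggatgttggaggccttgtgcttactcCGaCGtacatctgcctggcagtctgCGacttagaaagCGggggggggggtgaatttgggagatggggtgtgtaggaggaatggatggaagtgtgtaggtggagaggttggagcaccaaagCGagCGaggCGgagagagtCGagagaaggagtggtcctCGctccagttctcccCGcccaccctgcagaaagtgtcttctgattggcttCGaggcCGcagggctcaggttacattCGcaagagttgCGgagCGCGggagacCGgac

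What the 39 genes shared in the APP comparison was a link to base composition. Their exonic GC content ran from 38.6% in Ppp3cb to 69.0% in Prr7, and they were split at their median into 20 GC-rich genes (52.5% and above) and 19 GC-poor genes. After JQ1 in APP mice, 19 of the 20 GC-rich genes lay below 0, with a median log2 fold change of -0.20, and 13 of the 19 GC-poor genes lay above 0, with a median of 0.10. Adcy1 was the GC-rich exception, at 0.03. Across the 39 genes GC content and log2 fold change were related with Pearson r = -0.87 and Spearman rho = -0.90, a description across genes that come from the same libraries and are not independent replicates. The relation was also present over 16769 genes, with r = -0.38 and rho = -0.57. The 48 genes tested with a GC content from 65 to 70%, the range of Prr7, had quartiles of -0.60, -0.37 and -0.20. All genes in the GC range of the GC-rich members had a median of -0.17 and all genes in that of the GC-poor members 0.07.

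The coding sequences show this contrast only in part. The middle 90 coding bases of the longest coding sequence (GENCODE M21 on GRCm38, spliced) are shown for the 2 genes highest and the 2 lowest in exonic GC content, with G and C in capitals. They are Prr7 within chr13:55472385-55472630 on the plus strand (72.2% G or C, codons 121 to 150 of 269 residues), Dlgap3 at chr4:127214348-127214437 on the plus strand (68.9%), Ppp3cb within chr14:20523832-20524024 on the minus strand (30%) and Creb1 within chr1:64570198-64574083 on the plus strand (52.2%). All are coding exon sequence, and all but that of Dlgap3 join 2 exons. In Creb1 the coding sequence has 48.2% G or C against 39.3% for all exonic bases. The log2 fold changes of these 4 genes after JQ1 in APP mice were -1.04, -0.38, 0.17 and 0.28.
Prr7: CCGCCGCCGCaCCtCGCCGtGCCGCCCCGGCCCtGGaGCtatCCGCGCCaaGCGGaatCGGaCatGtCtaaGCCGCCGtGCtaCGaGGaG
Dlgap3: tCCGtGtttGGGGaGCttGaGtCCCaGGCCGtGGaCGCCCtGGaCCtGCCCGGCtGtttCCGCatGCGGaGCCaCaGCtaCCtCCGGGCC
Ppp3cb: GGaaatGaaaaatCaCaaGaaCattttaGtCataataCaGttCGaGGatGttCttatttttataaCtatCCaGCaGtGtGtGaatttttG
Creb1: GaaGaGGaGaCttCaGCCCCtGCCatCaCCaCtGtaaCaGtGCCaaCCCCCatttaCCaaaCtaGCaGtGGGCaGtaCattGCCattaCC

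**Figure D4:**
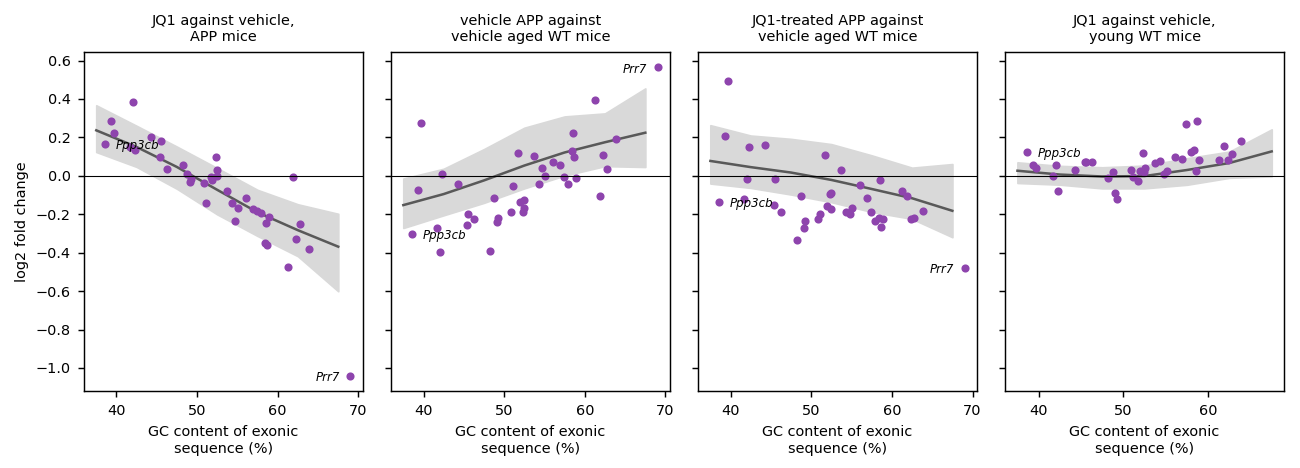
Log2 fold change of the 39 or 38 genes (points) against the GC content of their exonic sequence in 4 comparisons. The line and band give the median and the quartiles of the genes tested that have a GC value, in steps of 5 percentage points. In the young panel the line covers the 74.3% of loci with a known GC content. In APP mice the points fall from 0.17 for Ppp3cb to -1.04 for Prr7, as the line falls. Prr7, Shank1 (-0.47), Nrgn (-0.36) and Dlgap4 (-0.35) are among the points below the band. Ppp3ca (0.38), Dlg3 (0.10) and Ppp1r9b (-0.005) are among those above it. In the second panel, which shares the vehicle-treated APP mice with the first, the points rise.

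The same balance was computed for each mouse as the median deviation from the gene mean over the GC-rich genes minus that over the GC-poor genes, on the log2 scale. It lay between -0.35 and 0.01 (median -0.07) in the 6 JQ1-treated APP mice and between 0.03 and 0.29 (median 0.16) in the 6 vehicle-treated APP mice, so the groups did not overlap. The 4 WT mice had -0.34, -0.01, 0.05 and 0.08, and the lowest of these was replicate 1, the mouse with the choroid plexus markers. In the young mice it lay between -0.28 and 0.23 after JQ1 and between -0.22 and 0.07 after vehicle, with overlap. All genes of the same GC ranges gave between -0.25 and 0.01 in the JQ1-treated APP mice and between 0.08 and 0.21 in the vehicle-treated ones.

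**Figure D5:**
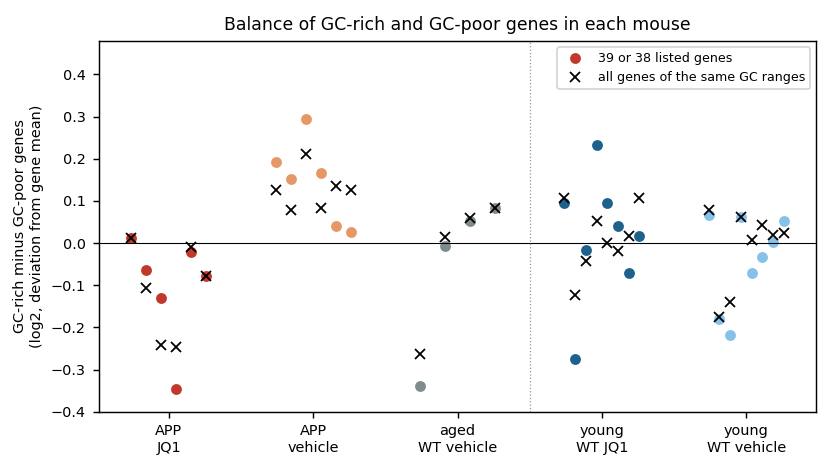
Balance of GC-rich against GC-poor genes in every mouse (log2, deviation from the gene mean), for the 39 genes in aged mice or the 38 in young mice (filled circles) and for all genes of the same GC ranges (crosses). JQ1-treated APP mice lie at or below 0.01 and vehicle-treated APP mice at or above 0.03, and the crosses follow the circles.

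After the correction for GC content and length, the medians of GC-rich and GC-poor genes in APP mice were 0.01 and -0.02, and 19 genes lay above 0 and 20 below. By its construction the correction takes out differences linked to GC content or length, so the lost contrast is no separate result. The lowest value was then -0.60 for Prr7 and the highest 0.34 for Ppp1r9b, neither past the threshold (adjusted p = 0.274 and 0.28, edgeR). Dlgap4 had -0.10, Nrgn -0.15 and Dlgap3 0.004 after this correction. In young WT mice all 19 GC-rich genes tested lay above 0, with a median of 0.08, and 12 of the 19 GC-poor genes did, with a median of 0.03. Across those 38 genes r was 0.45 and rho 0.52. GC content was known for 74.3% of the young loci tested, under the 80% taken as needed, so the relation over all loci is void there.

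Between APP and WT mice that both had received vehicle, 0 of the 39 genes passed the threshold, where 2.57% of all genes did (edgeR), and 4 had an unadjusted p under 0.05, where 14.4% of all genes did. DESeq2 called 0 as well, and without WT replicate 1 edgeR called 0 of 39 and 154 of 17330 genes in all. The median log2 fold change was -0.04 against 0.01 for all genes, with 16 genes above 0 and 23 below. Without WT replicate 1 the median was -0.09, with 13 above and 26 below, and with the correction for GC content and length it was -0.17, with 6 above and 33 below, where the median of all genes was -0.07. Prr7 had the highest value, 0.56 ± 0.24, with an adjusted p of 0.283, and without WT replicate 1 it had 0.43 with an adjusted p of 0.642. Ppp3ca had the lowest, -0.40 with an adjusted p of 0.372, and -0.26 without that mouse, when Adcy1 had the lowest, -0.35 in place of -0.12. Ppp3cb alone of the 39 was without overlap between the groups, where 6.99% of all genes had none and 2.05% had none with a lower level in APP mice. It ranged from 344.9 to 386.3 CPM (median 371.1) in vehicle-treated APP mice and had 577.0, 413.6, 393.3 and 430.4 CPM in the WT mice, with a log2 fold change of -0.30 and an adjusted p of 0.244. Without replicate 1, whose 577.0 CPM is the highest, it was -0.17. Homer3 and Camk4 moved furthest without it, Homer3 from -0.04 to 0.23 and Camk4 from -0.39 to -0.13. Camk4 read 186.6 CPM in replicate 1 and 105.8, 94.1 and 106.0 CPM in the other 3. Across the 39 genes, log2 fold change and GC content were related with r = 0.62, and with r = 0.39 without replicate 1, in a comparison that shares its vehicle-treated APP mice with the one after JQ1.

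JQ1-treated APP mice were also set against the WT mice, a comparison that shares its samples with those above. In edgeR 0 of 39 passed, where 2.06% of all genes did, and 4 had an unadjusted p under 0.05, where 14.1% did. Without WT replicate 1, 0 of 39 and 153 of 17330 genes passed. DESeq2 called 0 here too, and for 0 of 39 were the groups without overlap, where 3.71% of all genes had none. The values lay below 0 for 33 genes and above for 6, with a median of -0.16 against 0.001 for all genes, and without WT replicate 1 for 32 and 7 with a median of -0.16. All 7 small GTPase regulators and all 5 Shank and Homer genes were below 0, but without WT replicate 1 Homer3 turned from -0.23 to 0.04. Dlgap2 turned from 0.03 to -0.01 and Ppp3ca from -0.01 to 0.13 without it. Camk2d had the highest value, 0.50 ± 0.17 (adjusted p = 0.155), and Prr7 the lowest, -0.48 ± 0.24 (adjusted p = 0.385). Without WT replicate 1, Camk2d had 0.44 (adjusted p = 0.248, edgeR) and Prr7 -0.61 (adjusted p = 0.227, edgeR). Rasgrf1 had a mean of 712.1 CPM after JQ1 and of 727.7 CPM after vehicle in APP mice, and of 860.9 CPM in WT mice. The log2 fold change after JQ1 was -0.27 against WT with an adjusted p of 0.325 (edgeR). Without WT replicate 1 it was -0.35 with an adjusted p of 0.168 (edgeR). As in any bulk tissue, fewer neurons and less RNA per neuron cannot be told apart in such values.

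Of the astrocyte markers 1 of 5 and of the microglia markers 2 of 5 were higher in vehicle-treated APP than in WT mice past the threshold (edgeR). Of all genes 2.57% passed there in either direction. The summed level of 5 astrocyte markers lay between 2258 and 6326 CPM in vehicle-treated APP mice, between 1462 and 5713 CPM after JQ1 and between 1214 and 1302 CPM in WT mice, and that of 5 microglia markers between 355.3 and 490.2, between 209.1 and 553.4 and between 195.2 and 227.2 CPM. After JQ1 the lowest values of Gfap, Cx3cr1 and Csf1r were 322.1, 42.9 and 85.2 CPM, at or near the WT level. WT mice ranged from 248.8 to 320.8, 37.4 to 47.3 and 81.5 to 102.1 CPM. The lowest vehicle-treated APP values were 1262, 84.8 and 169.0 CPM. Aqp4, Aldh1l1, Slc1a3 and P2ry12 stayed above the WT range in every JQ1-treated mouse. Between JQ1 and vehicle in APP mice 0 genes of the 13 marker lists passed the threshold, and the CA1 markers summed to between 1900 and 2519 CPM after JQ1 and between 2317 and 2789 CPM after vehicle. Their part in the differences of the 39 genes was not tested.

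Other genes of the same pathways were counted too. Of 32 further postsynaptic density scaffolds, 0 passed in APP mice after JQ1, with 13 above 0 and 19 below and a median of -0.05. Of 62 further LTP signalling genes, 1 passed, Map2k2, a kinase of the MAP kinase cascade, at 82.2 ± 8.88 CPM after JQ1 and 107.5 ± 8.97 CPM after vehicle (SD, n = 6 each). Its log2 fold change was -0.39 with an adjusted p of 0.0459 (edgeR), where 1.08% of all genes passed. At an unadjusted p under 0.05 there were 10 of the 32 scaffolds and 12 of the 62 LTP genes, where 17.6% of all genes reached this level. In vehicle-treated APP against WT mice, JQ1-treated APP against WT mice and young JQ1-treated against vehicle-treated mice, 0 genes of either list passed, and at an unadjusted p under 0.05 there were 5, 4 and 1 scaffolds and 10, 7 and 1 LTP genes (edgeR, edgeR and limma). Of all features 14.4%, 14.1% and 4.65% were at that level in these comparisons. For the difference between the JQ1 effects in APP and young WT mice, 1 of 29 scaffolds and 1 of 57 LTP genes passed. Of all genes 2.02% did. The 2 genes were Caskin1 (-0.50, adjusted p = 0.0292, limma) and Map2k2 (-0.52, adjusted p = 0.023, limma), both with a lower log2 fold change after JQ1 in APP than in young WT mice. Their exonic GC content is 60.4% and 56.7%, and values corrected for it are not given for them here.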

How the data were processed

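CA1 RNA of 32 mice was analysed, from 33 samples in the labels, and aged WT replicate 2 was not analysed here. The authors sequenced on a HiSeq2000, used STAR with up to 2 mismatches for alignment to mm10, and htseq for counting. The deposited counts of the aged mice are whole numbers without normalization. The deposited FPKM of the young mice came, per the methods, from cufflinks/cuffdiff, scaled to transcript length and depth. Whether counting used strand is not given in the sources used here. The floors of 3 counts cover counting error only, and the 95% intervals rest on the spread between samples.

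Counts were tested with edgeR 4.0.16 (TMM, filterByExpr, robust quasi-likelihood fit of the 3 aged groups, 16962 genes), with CPM on TMM-scaled library sizes. FPKM were tested with limma 3.58.1 (trend, robust) on log2(FPKM + 0.1), for loci of at least 0.5 FPKM in at least 8 of 16 mice. Fold changes on that scale understate those of low genes. The difference between experiments was tested with limma on log2 CPM (prior count 2) and log2(FPKM + 0.1). Adjusted p-values are Benjamini-Hochberg values over all features tested, with a threshold of 0.05. Single genes were also tested with two-sided exact permutation tests, whose smallest p is 0.00217 for 6 against 6 and 0.00476 for 6 against 4. The labels do not say that each sample is 1 animal, so p-values measure the spread between samples. GC content and length came from GENCODE M21 on GRCm38 (the build of mm10), over the union of exons. Genes are named where they passed a threshold, had the largest change after JQ1 in APP mice in their role group, or had the highest level per length in it, and others are given by range and count or named after their values were seen. The members and all lists were chosen with earlier results of these data known.

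Alternatives were DESeq2 1.42.0, RLE size factors, other filters, pseudocounts of 0.01 and 1, only the 2 groups compared, median-ratio rescaling, limma without trend or robust, the replicate number as a block, spline corrections (5 degrees of freedom) for GC content or GC content and length, and leaving out each sample. Fits were checked on simulated data. Scripts ran in R 4.3.3 and in Python 3.11.15 with pandas 2.3.3, scipy 1.17.1, matplotlib 3.10.9 and numpy 2.4.6.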

Additional observations from a re-analysis of the deposited data

Results flagged for a closer look

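For 2 genes the effects of JQ1 differed between APP and young WT mice by a test of the difference itself (limma, adjusted over 12275 genes). For Dlgap4 the difference, APP minus young, was -0.4916 on the log2 scale (adjusted p = 0.0169), with -0.35 in APP mice and 0.14 in young WT mice. For Nrgn it was -0.6344 (adjusted p = 0.0271), with -0.36 and 0.28. Both genes are GC-rich (58.4% and 58.6%), and the relation of the difference with GC content over the 38 genes was r = -0.88. In 53 pairs of a group and a gene named by the rule given above, no mouse stood apart from its group by Dixon's test. Other genes, Ppp1r1b among them, were not examined in this way.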

How the results depend on the processing

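Of the 39 genes, 1 passed after JQ1 in APP mice. The count was 3 with DESeq2, 2 with a minimum of 10 counts in every sample, and 0 with the correction for GC content, for GC content and length, or for both with the replicate block. It lay between 0 and 2 when each mouse was left out, and was 0 without JQ1 replicate 2, 4 or 6 or vehicle replicate 3, 4 or 5, and 2 (Dlgap4 and Prr7) without JQ1 replicate 1 or 5 or WT replicate 1. Prr7 stayed under an adjusted p of 0.05 in 10 of 16 such fits (log2 fold change -1.18 to -0.90, adjusted p 0.0162 to 0.0798) and Dlgap4 in 3 of 16 (-0.39 to -0.31, 0.0254 to 0.128). All genes called numbered 184, 749 with DESeq2, 19 with the GC correction, 38 with GC content and length, 29 with these and the block, and between 65 and 446 with 1 mouse left out. For the difference between experiments, the 2 genes became 0 of 38 with the correction for GC content and length (49 genes in all against 248). In the other 3 comparisons the count was 0 under every alternative run.

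The replicate number as a block left 1 of 39 genes (Prr7) and 87 genes in all, and changed no other member count. Replicate numbers are shared by the groups. Between the APP groups, deviations of same-numbered mice correlated with a mean of 0.124 and a lowest value of -0.107. Those of differently numbered mice had a mean of -0.0207. Of 6 JQ1-treated mice, 3 correlated best with their own number. Whether the numbers pair the mice is not settled by these correlations.

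Some directions turned, most of them with the corrections. With the correction for GC content, for GC content and length, and for these with the block, in that order, the log2 fold changes after JQ1 in APP mice became 0.0718, 0.114 and 0.109 for Agap2, 0.0313, 0.0585 and 0.054 for Cyfip2, -0.0408, -0.0581 and -0.0607 for Dlg2, and 0.305, 0.344 and 0.336 for Ppp1r9b. Ppp1r9b also turned to 0.0024 with DESeq2 and 0.0022 with RLE size factors, and spanned -0.0554 to 0.0614 with 1 mouse left out, as Cyfip2 spanned -0.0646 to 0.0215. Dlgap3 became 0.0045 and 0.000664 with the latter 2 corrections. GC-rich minus GC-poor genes became 0.0182, 0.0317 and 0.0424, by the construction of the correction, and spanned -0.36 to -0.23 with 1 mouse left out. Between vehicle-treated APP and WT mice the same 3 corrections gave -0.0688, -0.0585 and -0.0132 for Dlgap4 and -0.10, -0.104 and -0.0726 for Nrgn, and Nrgn spanned -0.038 to 0.2 with 1 mouse left out, turning without WT replicate 1. Beyond the corrections the causes were not tested. The corrections moved the median of all genes in the 2 comparisons with WT mice to between -0.07 and -0.08. Depth is unknown for the young mice, and Prr7 has the lowest CPM of the 39 genes in the aged ones.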

Other observations

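The level of the 39 genes as a whole was also set out by mouse. The median deviation of a mouse from the gene means, over all 39 genes, lay between -0.38 and 0.17 (log2) in JQ1-treated APP mice, between -0.15 and 0.16 in vehicle-treated APP mice and between -0.12 and 0.19 in WT mice. JQ1 replicate 6, with -0.38, had the lowest value and also the lowest depth of the aged libraries, 14605459 counts. In the young mice it lay between -0.07 and 0.32 after JQ1 and between -0.13 and 0.11 after vehicle, and the highest, 0.32, belonged to JQ1 replicate 4.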
